A study of Mus musculus with 10 samples.

Results

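The activin, BMP, TGF-β and ID genes described here are 10 of the 38922 genes measured in liver RNA of mice that received an activating antibody against the death receptor CD95 (CD95-Ab). They are listed by name, with no threshold on a measured value: the ligand genes Tgfb1, Inhba, Inhbb, Inhbe and Bmp2, the inhibitory SMAD genes Smad6 and Smad7, and the ID genes Id1, Id2 and Id3. All 10 were found in the files by their mouse Ensembl identifiers. Livers came from male wild-type C57BL/6N mice, an inbred laboratory strain, aged 6 weeks. One group of 5 mice was injected intraperitoneally with CD95-Ab at 0.5 µg per g of body weight, and the other group of 5 mice with an equivalent volume of saline. All livers were taken 6 h after the injection, so a single dose and a single time were measured. Each mouse gave its own RNA sequencing library of whole liver, and the labels name the mice as biological replicates. No experimental batch was given in the labels.

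Ligands of the TGF-β superfamily are secreted dimers that bind pairs of serine/threonine kinase receptors. The receptors phosphorylate SMAD proteins, which enter the nucleus with the common SMAD and bind DNA. TGF-β and activins act mainly through one group of these SMADs and BMPs through the other, and the inhibitory SMADs block both at the receptor or at the common SMAD. ID proteins are helix-loop-helix proteins without a DNA-binding region that capture bHLH transcription factors, and their genes are well-known targets of BMP signalling. In liver, TGF-β restrains hepatocyte growth and activates stellate cells, activins limit liver mass, and BMP signalling sets hepcidin and thereby iron uptake.

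The libraries held between 25965699 and 62097636 expected counts, with a median of 30497435, and levels are given as CPM, the counts of a gene relative to the TMM-adjusted total of the mouse. On this scale 3 counts lay at 0.0556 to 0.121 CPM. Markers of liver cells were present in all mice, and none of the listed markers was at 0 in every mouse. Of 6 hepatocyte markers, 3 fell after CD95-Ab and none rose, and their summed level was between 96922 and 122245 CPM with saline and between 41538 and 77004 CPM after CD95-Ab. All 5 tested neutrophil markers of 6 listed rose (summed levels 4.08 to 10.2 against 102 to 407 CPM), as did 5 of 6 markers of sinusoidal endothelial cells (44.5 to 113 against 139 to 254 CPM), 4 of 6 of stellate cells (82.9 to 122 against 154 to 301 CPM), 2 of 6 of Kupffer cells (124 to 425 against 236 to 559 CPM), 6 of 6 of lymphocytes (0.873 to 3.51 against 5.33 to 8.96 CPM) and 3 of 4 of cholangiocytes (2.96 to 4.58 against 23.7 to 99.0 CPM). Most of the cholangiocyte sum after CD95-Ab was Sox9, whose mean was 1.91 CPM with saline and 58.4 CPM after CD95-Ab. The means of Krt19, Krt7 and Epcam after CD95-Ab were 2.63, 1.56 and 1.53 CPM, and Krt7 did not pass the test. All 5 erythroid markers rose (135 to 323 against 1064 to 33994 CPM). Of 3 small RNAs without a poly(A) tail, both tested rose, from between 0.278 and 0.885 CPM to between 357 and 1305 CPM summed over the list. Nearly all of this sum after CD95-Ab was Rn7sk, whose mean was 0.392 CPM with saline and 742 CPM after CD95-Ab. These RNAs were listed to describe RNA quality, and a difference in it between the groups was not tested. Over all tested genes, 25.4% were called higher and 22.0% lower after CD95-Ab. The part of the marker shifts in the values below was not tested. In whole tissue, fewer cells of a type and less RNA per cell cannot be told apart. Saline replicate 5 stood apart for Id1, Hamp and Hamp2, and the fold changes of these genes are given with and without it.

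After CD95-Ab, Inhbb, Id3 and Tgfb1 rose strongly, Bmp2 and Smad6 rose by less than 2-fold, Inhbe fell, and Inhba, Smad7, Id1 and Id2 did not pass the test. In the quasi-likelihood test of edgeR with Benjamini-Hochberg adjustment over 13719 genes, 6 of the 10 genes passed the FDR threshold of 0.05, with 5 higher and 1 lower after CD95-Ab. Over all tested genes 47.3% were called, 25.4% higher and 22.0% lower. A log2 fold change of 2 or more was reached by 3 of the 10 genes, compared with 6.59% of all tested genes. For these 3 genes all CD95-Ab mice lay above all saline mice, a separation seen in 18.6% of tested genes, and for none of the 10 genes did all CD95-Ab mice lie below, as in 14.7%. Groups without overlap in either direction made up 33.3% of tested genes. The median log2 fold change was 0.38 over the 10 genes and 0.01 over all tested genes.

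**Figure D1:**
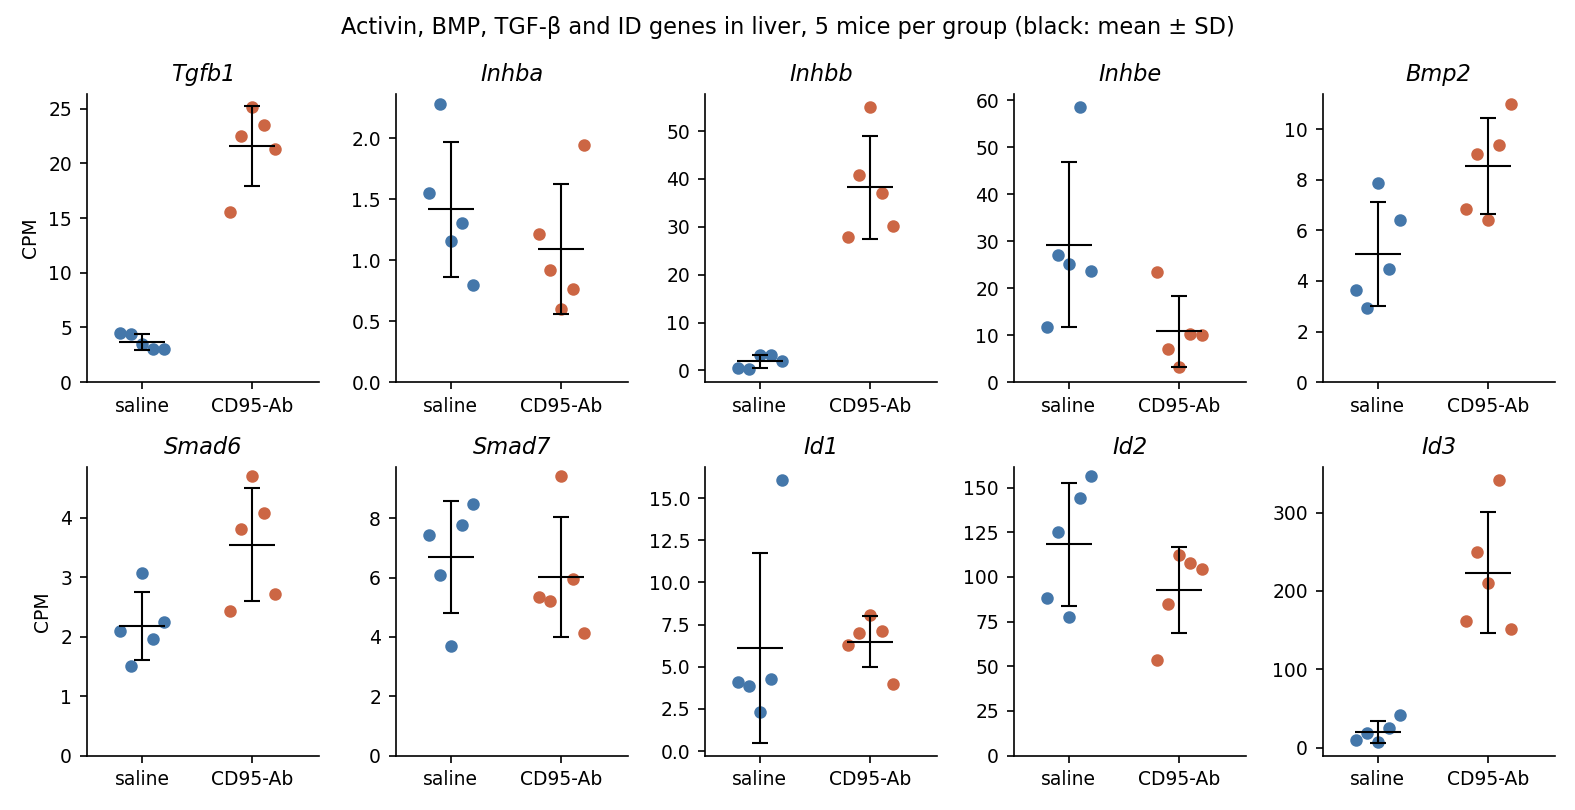
Normalised level (CPM, y axis, one scale per gene) of the 10 genes in each of the 5 saline and 5 CD95-Ab mice, with points for mice and black bars for mean ± SD. Points of the groups do not overlap for Tgfb1, Inhbb and Id3, and saline replicate 5 stands at 16.1 CPM for Id1.

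**Figure D2:**
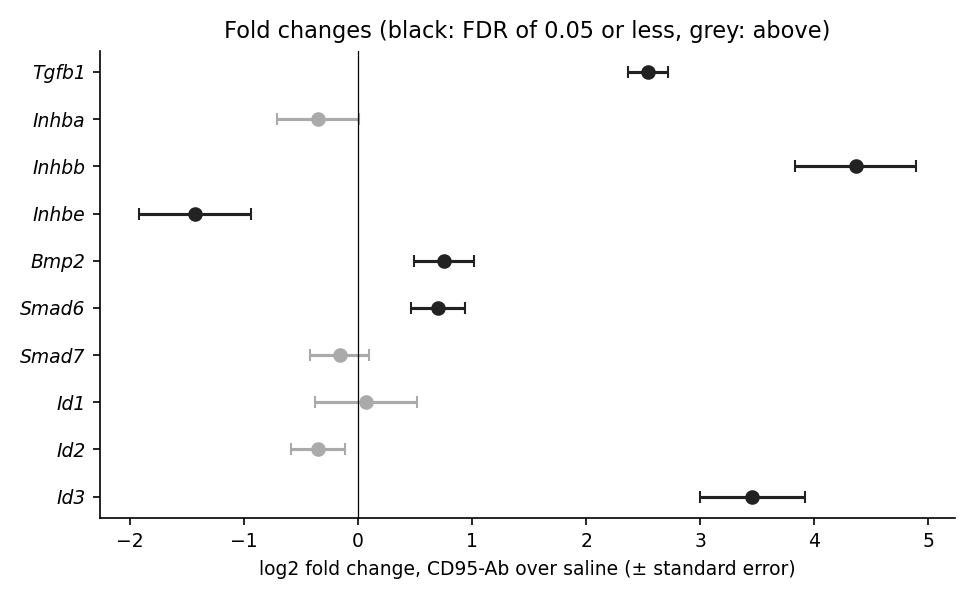
Log2 fold change of CD95-Ab over saline (x axis) with its standard error for the 10 genes, black where the FDR was 0.05 or less and grey where it was higher. Values run from -1.43 for Inhbe to 4.36 for Inhbb.

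Activins are dimers of inhibin β subunits, and the liver is known for the subunits encoded by Inhbc and Inhbe. Inhbb (ENSMUSG00000037035, chr1:119415465-119422248 on the minus strand, GRCm38), which encodes the subunit of activin B, was at 0.588, 0.296, 3.32, 3.16 and 2.02 CPM in saline replicates 1 to 5. It was at 27.9, 40.9, 55.1, 37.1 and 30.2 CPM in CD95-Ab replicates 1 to 5. Every CD95-Ab mouse was thus above every saline mouse, and the saline values rest on 10 to 118 counts. The rise was 20.6-fold, with a log2 fold change of 4.36 ± 0.53 (SE) and an FDR of 4.86e-05. Leaving out each mouse in turn gave log2 fold changes between 4.09 and 4.68.

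Inhba (ENSMUSG00000041324, chr13:16011851-16031621, plus strand), which encodes the subunit of activin A, did not follow Inhbb. Its level was 1.55, 2.28, 1.16, 1.31 and 0.797 CPM in saline replicates 1 to 5 and 1.22, 0.924, 0.597, 0.767 and 1.95 CPM in CD95-Ab replicates 1 to 5, so the groups overlapped. The log2 fold change was -0.35 ± 0.36 (SE) with a 95% confidence interval from -1.05 to 0.35 and an FDR of 0.447. The log2 ratio of Inhbb to Inhba in FPKM, which is per transcript length, went from a mean of -1.49 ± 1.99 (SD, n = 5) to 3.81 ± 0.99 (SD, n = 5), a difference of 5.30 (exact permutation test, two-sided, p = 0.00794, adjusted over 4 ratios p = 0.0106). The ratio was chosen for testing after the levels were seen, and 0.00794 is the smallest p that 5 mice against 5 allow.

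Inhbe (ENSMUSG00000047492, chr10:127348857-127354411, minus strand) encodes the subunit of activin E, which hepatocytes secrete. Its level was 11.7, 27.1, 25.1, 58.7 and 23.7 CPM in saline replicates 1 to 5 and 23.5, 7.10, 3.18, 10.2 and 10.1 CPM in CD95-Ab replicates 1 to 5. CD95-Ab replicate 1 lay within the range of saline mice, and the other 4 lay below it. The log2 fold change was -1.43 ± 0.49 (SE) with an FDR of 0.0309. The call was lost without saline replicate 4, where the log2 fold change was -1.03 and the FDR 0.0961, and without CD95-Ab replicates 2, 3, 4 or 5, where the FDR was 0.0738, 0.0543, 0.0550 and 0.0624. Inhbc, the other hepatocyte subunit gene, fell as well, from 52.0 ± 7.09 to 33.8 ± 7.70 CPM (SD, n = 5 each), with a log2 fold change of -0.62 ± 0.17 (SE) and an FDR of 0.00906.

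The makeup of inhibin β transcripts differed between the groups as well. In summed FPKM of Inhba, Inhbb, Inhbc and Inhbe, Inhbc took the largest mean share in both groups, 65.5% ± 10.7 with saline and 53.8% ± 5.17 after CD95-Ab (SD, n = 5 each). The share of Inhbb was 1.05% ± 0.769 and 29.2% ± 12.2, and that of Inhba 2.20% ± 0.798 and 2.12% ± 1.11. The share of Inhbe was 31.3% ± 10.9 with saline and 14.9% ± 7.78 after CD95-Ab, a difference of -16.4 percentage points (exact permutation test, two-sided, p = 0.0159, adjusted over 3 measures p = 0.0238). Without saline replicate 4 the difference was -12.5 points and the adjusted p 0.0714. The adjusted p was also above 0.05 without saline replicates 2, 3 or 5 (0.0595 each) and without CD95-Ab replicates 2, 3, 4 or 5 (0.0714 each). The share of Inhbe also falls when Inhbb rises in the same sum, so its test is not one of Inhbe alone. The sum of the 4 genes was 44.2 ± 11.8 FPKM with saline and 32.3 ± 9.05 FPKM after CD95-Ab.

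**Figure D3:**
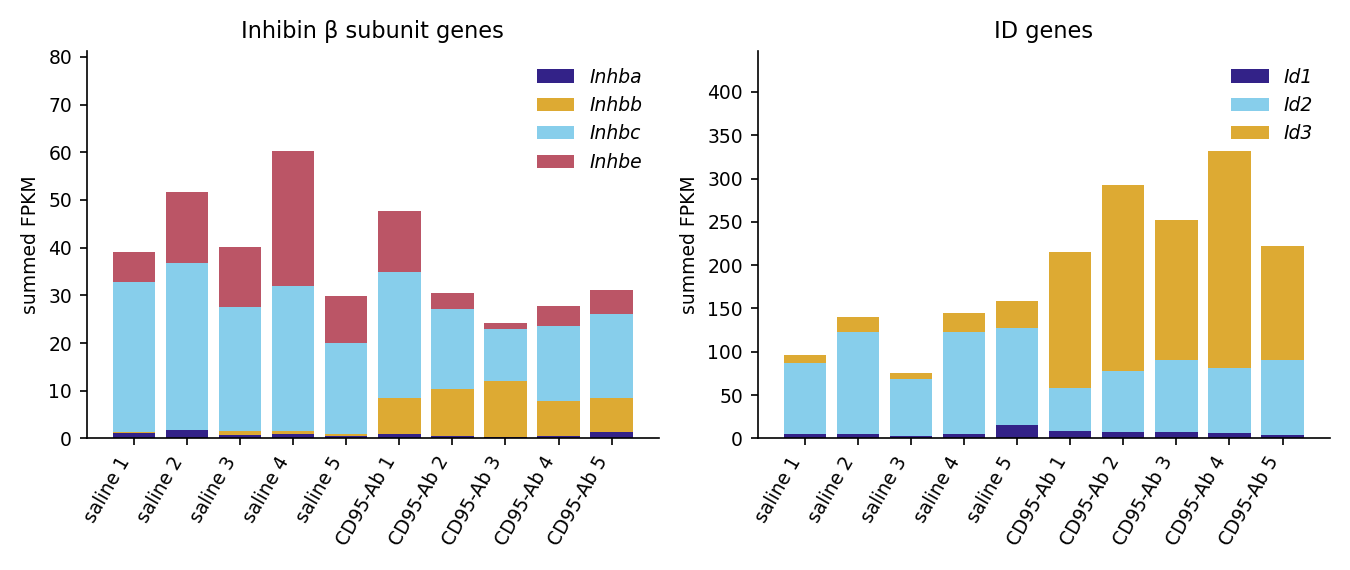
Summed FPKM (y axis) per mouse (x axis) of the 4 inhibin β subunit genes at left and of 3 ID genes at right, stacked by gene. Inhbb becomes visible in the CD95-Ab mice at left, and at right Id3 makes up most of each CD95-Ab bar, as Id2 does of each saline bar.

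The promoter windows of Inhbb and Inhbe are shown because these subunit genes moved in opposite directions. Windows of 300 bases, from 250 before to 50 after the transcript start, were taken from RefSeq (GRCm38.p6), where 7 of the 10 genes had one. Both strands were searched for CAGAC, which holds the SMAD box and reads GTCTG on the other strand, and for the palindrome GGCGCC, the core of GC-rich sites bound by BMP SMADs. CAGAC or GTCTG occurs in 49.6% of the 32817 mouse windows and GGCGCC in 11.9%. Capitals below mark these letters. The Inhbe window holds CAGAC or GTCTG at 220 and 31 bases before the start, and the Inhbb window holds neither motif. The whole Inhbe window lies inside the gene span given above, so its motif positions refer to the RefSeq start and not to the edge of that span.
Inhbb, chr1:119422199-119422498, minus strand: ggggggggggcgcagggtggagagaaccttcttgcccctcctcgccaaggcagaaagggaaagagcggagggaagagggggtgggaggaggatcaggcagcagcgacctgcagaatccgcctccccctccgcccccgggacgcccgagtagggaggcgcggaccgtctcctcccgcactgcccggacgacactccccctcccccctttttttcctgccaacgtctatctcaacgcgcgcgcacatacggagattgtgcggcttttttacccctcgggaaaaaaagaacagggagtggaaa
Inhbe, chr10:127351799-127352098, minus strand: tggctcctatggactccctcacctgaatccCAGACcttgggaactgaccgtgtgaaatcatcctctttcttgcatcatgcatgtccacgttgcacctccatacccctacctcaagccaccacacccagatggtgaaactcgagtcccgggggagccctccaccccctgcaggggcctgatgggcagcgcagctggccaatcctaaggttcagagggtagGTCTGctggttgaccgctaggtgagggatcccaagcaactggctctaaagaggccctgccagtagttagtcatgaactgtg

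Tgfb1 (ENSMUSG00000002603, chr7:25687002-25705077, plus strand), which encodes the main TGF-β isoform of adult tissue, stood at 4.49, 4.45, 3.52, 3.04 and 3.04 CPM in saline replicates 1 to 5. In CD95-Ab replicates 1 to 5 it stood at 15.5, 22.5, 25.2, 23.5 and 21.4 CPM. The groups were far apart and the spread within each was small. The rise was 5.82-fold, with a log2 fold change of 2.54 ± 0.17 (SE) and an FDR of 1.09e-06, the lowest of the 10 genes. Of the other isoforms, Tgfb2 rose from 0.269 ± 0.0922 to 1.12 ± 0.643 CPM (log2 fold change 2.00 ± 0.39, FDR 0.00142), and Tgfb3 from 0.953 ± 0.329 to 2.21 ± 0.704 CPM, or 2.29-fold (FDR 0.00687).

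Bmp2 (ENSMUSG00000027358, chr2:133552159-133562885, plus strand) encodes a BMP ligand that sinusoidal endothelial cells supply for hepcidin control. It stood at 3.62, 2.94, 7.89, 4.46 and 6.40 CPM in saline replicates 1 to 5 and at 6.84, 9.01, 6.41, 9.37 and 11.0 CPM in CD95-Ab replicates 1 to 5. The groups overlapped, since saline replicate 3 was above 2 of the CD95-Ab mice. The log2 fold change was 0.75 ± 0.26 (SE) with an FDR of 0.0343. This call was lost when any one of saline replicates 1, 2 or 4 (FDR 0.0816, 0.0703 and 0.0830) or CD95-Ab replicates 2, 4 or 5 (FDR 0.0666, 0.0644 and 0.0835) was left out.

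Among 20 other ligand genes fixed by name, 11 were tested, of which 6 rose, 1 fell and 4 did not pass the test. That is 63.6% called, compared with 47.3% of all tested genes. Gdf15, a distant member of the family that many tissues release under stress, rose from 49.5 ± 34.5 to 289 ± 134 CPM (log2 fold change 2.55 ± 0.50, FDR 0.00134). Bmp10, a ligand of the endothelial receptor Acvrl1, rose from 0.532 to 2.54 CPM in the mean (2.26 ± 0.48, FDR 0.00242). The liver ligand gene Gdf2, whose product binds the same receptor, was at 12.0 and 12.8 CPM and did not pass the test (0.09 ± 0.31, FDR 0.819, and -0.25 without CD95-Ab replicate 3).

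Smad6 (ENSMUSG00000036867, chr9:63953076-64022059, minus strand), whose product inhibits mainly BMP signals, stood at 2.09, 1.51, 3.07, 1.96 and 2.24 CPM in saline replicates 1 to 5 and at 2.44, 3.82, 4.70, 4.08 and 2.72 CPM in CD95-Ab replicates 1 to 5. Saline replicate 3 was above CD95-Ab replicates 1 and 5, so the groups overlapped. The log2 fold change was 0.70 ± 0.24 (SE) with an FDR of 0.0296. It no longer passed without saline replicates 1, 2 or 4 (FDR 0.0600, 0.0691 and 0.0672) or CD95-Ab replicates 2, 3 or 4 (FDR 0.0633, 0.0741 and 0.0572).

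Smad7 (ENSMUSG00000025880), whose product inhibits TGF-β, activin and BMP receptors alike, stood at 7.43, 6.08, 3.69, 7.77 and 8.49 CPM in saline replicates 1 to 5 and at 5.33, 5.22, 9.44, 5.93 and 4.12 CPM in CD95-Ab replicates 1 to 5. Both groups covered largely the same range. The log2 fold change was -0.16 ± 0.26 (SE) with a 95% confidence interval from -0.67 to 0.34 and an FDR of 0.628. The log2 ratio of Smad6 to Smad7 in FPKM was -1.12 ± 0.76 with saline and -0.31 ± 0.39 after CD95-Ab (SD, n = 5 each), and its difference of 0.82 did not pass (exact permutation test, p = 0.0794, adjusted p = 0.0794). Smad6 and Smad7 together came to 11.5% ± 2.79 of the summed FPKM of the other SMAD genes with saline and to 10.9% ± 2.64 after CD95-Ab (SD, n = 5 each, exact permutation test, p = 0.683).

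Of the 6 receptor-regulated and common SMAD genes, 1 rose, 1 fell and 4 did not pass the test. The called share was thus 33.3%, below the 47.3% of all tested genes. Smad1, a carrier of BMP signals, rose from 13.8 ± 3.03 to 25.6 ± 3.88 CPM (log2 fold change 0.89 ± 0.16, FDR 0.000767). Smad9, which encodes a further BMP SMAD, was between 7.53 and 13.2 CPM in saline mice and between 0.318 and 0.931 CPM in CD95-Ab mice. All CD95-Ab mice lay below all saline mice for Smad9, with a log2 fold change of -4.10 ± 0.30 (SE) and an FDR of 1.82e-06.

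Id3 rose while Id1 and Id2 did not pass the test. Id3 (ENSMUSG00000007872, chr4:136143497-136145755, plus strand) stood at 9.36, 18.2, 7.21, 25.2 and 41.5 CPM in saline replicates 1 to 5. In CD95-Ab replicates 1 to 5 it stood at 162, 250, 210, 341 and 152 CPM. The lowest CD95-Ab mouse was thus several times above the highest saline mouse, replicate 5. The rise was 11.0-fold, with a log2 fold change of 3.46 ± 0.46 (SE) and an FDR of 9.63e-05, and without saline replicate 5 the log2 fold change was 3.90.

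Id2 (ENSMUSG00000020644, chr12:25093799-25097140, minus strand), the most abundant ID gene with saline, stood at 88.0, 125, 77.5, 144 and 156 CPM in saline replicates 1 to 5 and at 53.8, 84.9, 112, 108 and 104 CPM in CD95-Ab replicates 1 to 5. The groups overlapped, and the log2 fold change was -0.35 ± 0.24 (SE, 95% confidence interval from -0.82 to 0.12) with an FDR of 0.246. Id1 (ENSMUSG00000042745, chr2:152736251-152737410, plus strand), a BMP target in many cell types, stood at 4.09, 3.85, 2.31, 4.27 and 16.1 CPM in saline replicates 1 to 5 and at 6.29, 7.01, 8.04, 7.14 and 3.99 CPM in CD95-Ab replicates 1 to 5. Saline replicate 5 was the highest of the 10 mice for Id1. With all mice the log2 fold change of Id1 was 0.07 ± 0.45 (SE) with an FDR of 0.909, and without saline replicate 5 it was 0.83 ± 0.24 (SE) with an FDR of 0.0155.

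The makeup of ID transcripts differed between the groups. Id2 made up 82.0% ± 6.64 of the summed FPKM of Id1, Id2 and Id3 with saline and 28.3% ± 7.19 after CD95-Ab (SD, n = 5 each), a difference of -53.7 percentage points (exact permutation test, two-sided, p = 0.00794, adjusted p = 0.0238). Id3 took 12.9% ± 4.42 and 69.0% ± 7.00, and Id1 took 5.14% ± 2.80 and 2.70% ± 0.733. The share of Id2 falls when Id3 rises in the same sum, so its test is not a separate result on Id2. The sum of the 3 genes went from 123 ± 35.4 to 263 ± 48.9 FPKM. The log2 ratio of Id3 to Id2 differed by 4.05 and that of Id3 to Id1 by 3.31 between the groups (exact permutation tests, p = 0.00794 each, adjusted p = 0.0106 each, ratios chosen after the levels were seen). Id4, the remaining ID gene and not among the 10, rose from 0.188 ± 0.0955 to 0.829 ± 0.229 CPM (log2 fold change 2.06 ± 0.37, FDR 0.000802).

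The promoter windows of Id3 and Id2 are shown because these paralogs differed in response. Capitals mark the same letters as for the activin genes. Both windows lie inside the gene spans given above, so motif positions refer to the RefSeq starts and not to the edges of those spans. The Id3 window holds CAGAC or GTCTG at 167 and 68 bases before the start and no GGCGCC, while the Id2 window holds GGCGCC at 231 bases before the start and no CAGAC or GTCTG. Neither motif was found in the windows of Tgfb1, Inhba or Smad6. The GC box, GGGCGG or CCGCCC, was in 5 of the 7 windows (Tgfb1, Inhbb, Smad6, Id2 and Id3) and in 35.6% of all windows, and TATAAA or TTTATA was in that of Inhba alone and in 13.6% of all windows. The AP-1 site TGACTCA was in none of the 7 windows and in 5.20% of all. The same held for the core of the cAMP response element, TGACGT, at 7.51% of all windows, and for the E-box CACGTG, at 7.15%. These matches describe letters in the windows and are not evidence of binding.
Id3, chr4:136143572-136143871, plus strand: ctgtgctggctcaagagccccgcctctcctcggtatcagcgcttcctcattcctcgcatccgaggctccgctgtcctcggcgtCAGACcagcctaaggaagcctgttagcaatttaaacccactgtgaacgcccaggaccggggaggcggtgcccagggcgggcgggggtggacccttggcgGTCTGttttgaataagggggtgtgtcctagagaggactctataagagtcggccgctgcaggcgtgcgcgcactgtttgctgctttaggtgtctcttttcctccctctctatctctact
Id2, chr12:25096043-25096342, minus strand: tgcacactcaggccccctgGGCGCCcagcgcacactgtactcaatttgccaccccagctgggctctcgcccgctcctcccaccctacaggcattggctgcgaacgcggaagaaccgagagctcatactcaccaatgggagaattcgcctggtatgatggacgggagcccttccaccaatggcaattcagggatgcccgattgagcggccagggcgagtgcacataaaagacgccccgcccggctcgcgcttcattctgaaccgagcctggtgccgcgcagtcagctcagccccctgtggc

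Per transcript length, the order of the 10 genes differed between groups. With saline it ran from Id2 (99.3 ± 23.8 FPKM, SD, n = 5) through Id3, Inhbe, Id1, Tgfb1, Smad7, Bmp2, Inhba and Smad6 to Inhbb (0.446 ± 0.335 FPKM). Of neighbours in this order, the ranges over mice were apart only between Id2 and Id3 and between Id1 and Tgfb1. After CD95-Ab the order ran from Id3 (183 ± 48.0 FPKM) through Id2, Tgfb1, Inhbb, Id1, Inhbe, Bmp2, Smad7 and Smad6 to Inhba (0.686 ± 0.381 FPKM). There the ranges were apart between Id3 and Id2 and between Id2 and Tgfb1, and the other neighbours overlapped. Inhbb thus moved from the last place to the fourth.

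The wider pathway was described with 86 genes fixed by name, of which 70 were tested. Of these 35 rose (50%, against 25.4% of all tested genes), 9 fell (12.9%, against 22.0%) and 26 did not pass the test. Their median log2 fold change was 0.78. The lists were chosen with earlier results of these data known, so the shares are a description only. Levels of the pathway genes are given below as means over 5 mice with SD.

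**Figure D4:**
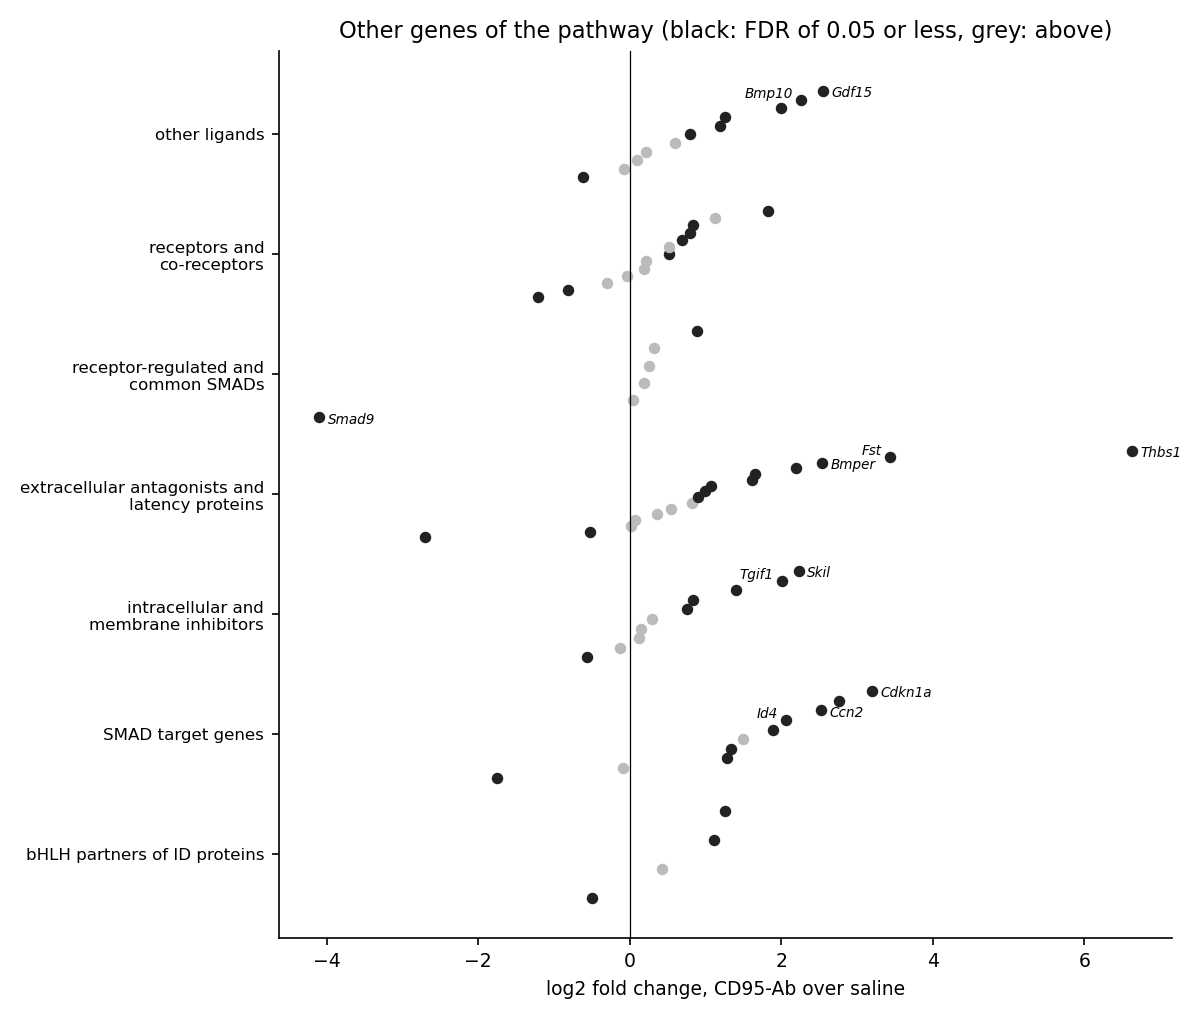
Log2 fold change of CD95-Ab over saline (x axis) for the 70 tested pathway genes, grouped by role (y axis), with black points for an FDR of 0.05 or less. Named genes passed the test with a log2 fold change of at least 2 in either direction, from -4.10 for Smad9 to 6.62 for Thbs1.

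Of 16 receptor and co-receptor genes, 13 were tested, with 5 higher, 2 lower and 6 not called. That is 53.8% called, compared with 47.3% of all tested genes. Acvrl1, an endothelial type I receptor gene, rose from 2.00 ± 0.772 to 7.09 ± 1.80 CPM (log2 fold change 1.82 ± 0.27, FDR 0.000188). Tgfbr3, which encodes the co-receptor betaglycan, had a log2 fold change of 0.83 ± 0.31 (FDR 0.0434) and Tgfbr1, the type I TGF-β receptor gene, one of 0.80 ± 0.13 (FDR 0.000488). The call of Tgfbr3 was lost when any mouse other than saline replicate 3 or CD95-Ab replicate 4 was left out (FDR 0.0528 to 0.121). Hfe2, which encodes the BMP co-receptor hemojuvelin of hepatocytes, fell from 55.3 to 23.9 CPM in the mean (-1.21 ± 0.26, FDR 0.00241), and Acvr2b, an activin type II receptor gene, fell from 1.46 to 0.830 CPM (-0.82 ± 0.22, FDR 0.0100).

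Extracellular antagonists and latency proteins held the largest single rise. Of 19 genes, 16 were tested, with 9 higher, 2 lower and 5 not called (68.8% called, compared with 47.3% of all tested genes). Thbs1, whose product thrombospondin can release TGF-β from its latent complex, was between 0.889 and 2.52 CPM in saline mice and between 171 and 233 CPM in CD95-Ab mice (log2 fold change 6.62 ± 0.28, FDR 9.23e-08). Fst, which encodes the activin antagonist follistatin, rose from 2.29 ± 1.43 to 24.8 ± 4.11 CPM (3.43 ± 0.36, FDR 1.74e-05). For both genes all CD95-Ab mice lay above all saline mice, a separation seen in 18.6% of all tested genes. Bmper, a BMP modulator gene, rose with a log2 fold change of 2.54 ± 0.56 (FDR 0.00304). Furin, the gene of a protease that cuts ligand precursors, fell with a log2 fold change of -0.52 ± 0.18 (FDR 0.0293), a call lost without saline replicate 3 (FDR 0.0742) or CD95-Ab replicates 1 or 5 (FDR 0.0580 and 0.0678).

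All 10 genes of intracellular and membrane inhibitors were tested, with 5 higher, 1 lower and 4 not called. That is 60% called, compared with 47.3% of all tested genes. Skil and Tgif1, both repressors of SMAD complexes, rose with log2 fold changes of 2.23 ± 0.22 (FDR 9.26e-06) and 2.00 ± 0.22 (FDR 2.06e-05), and Pmepa1, a TGF-β target that sequesters SMADs, with one of 1.40 ± 0.26 (FDR 0.000864). Ppm1a, a phosphatase gene for SMADs, fell (-0.56 ± 0.11, FDR 0.00104). Smad7 and the pseudoreceptor gene Bambi, both known targets of the pathway, did not pass the test (Bambi 0.15 ± 0.21, FDR 0.565).

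Of 11 genes known as SMAD targets, 10 were tested, with 7 higher, 1 lower and 2 not called. That is 80% called, compared with 47.3% of all tested genes. The SMAD targets also respond to other signals. Cdkn1a, a cell cycle inhibitor gene, rose from 11.3 to 103 CPM in the mean (log2 fold change 3.19 ± 0.77, FDR 0.00503) and Ccn2, which encodes connective tissue growth factor, from 6.29 to 36.3 CPM (2.53 ± 0.46, FDR 0.000803). Atoh8, a BMP-induced gene of hepatocytes, fell from 13.1 ± 3.98 to 3.93 ± 0.720 CPM (-1.75 ± 0.21, FDR 5.11e-05). Hamp, the hepcidin gene and main hepatic readout of BMP, was between 50.5 and 718 CPM with saline and between 374 and 1199 CPM after CD95-Ab and did not pass the test (1.50 ± 0.64, FDR 0.0711). Its near-identical paralog Hamp2 did not pass either (-0.09 ± 0.58, FDR 0.907), and the split of reads between both is uncertain. Both results depended on saline replicate 5, which stood at 718 CPM for Hamp and 243 CPM for Hamp2. The other saline mice were at most at 254 and 53.3 CPM. Without saline replicate 5 both genes rose, with log2 fold changes of 2.44 (FDR 0.00244) for Hamp and 1.02 (FDR 0.0165) for Hamp2. The result of Hamp also depended on the method, since with all mice it passed under 4 of 10 alternatives, given below. Saline replicate 5, with the highest Id1, was also the highest saline mouse for Hamp, Hamp2 and Atoh8, and for 30.3% of all tested genes.

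**Figure D5:**
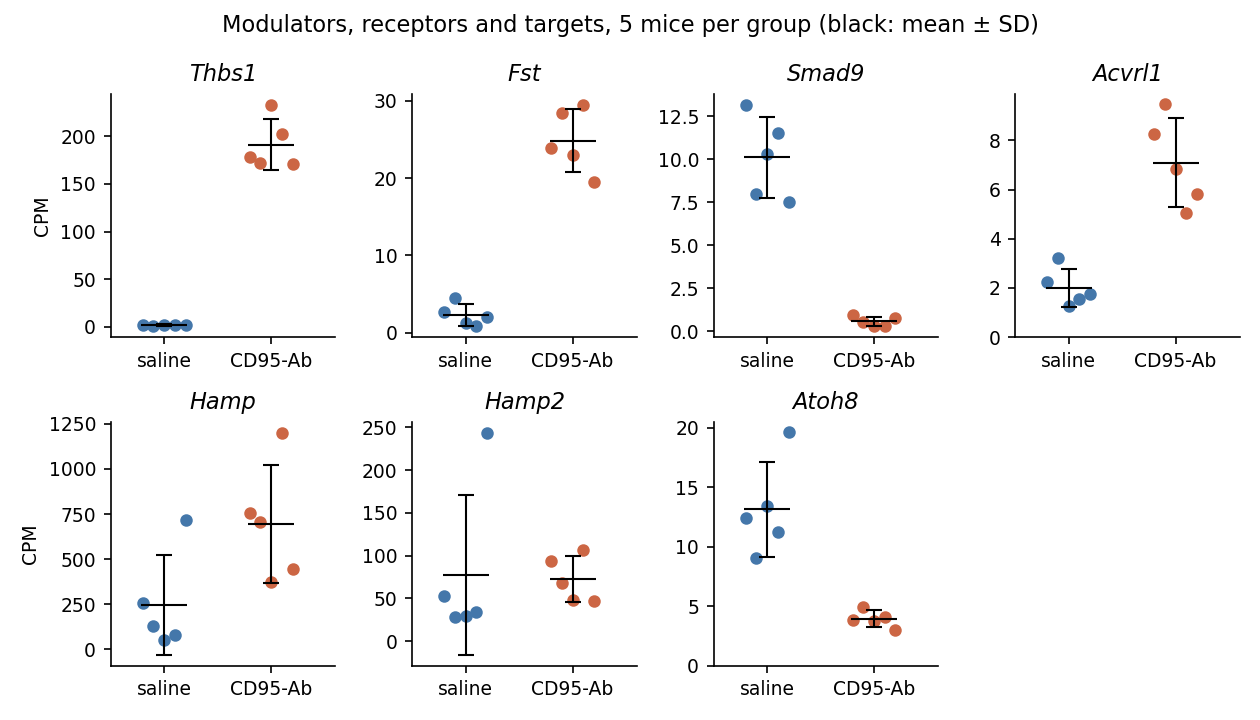
Normalised level (CPM, y axis, one scale per gene) of 7 pathway genes in each of the 5 saline and 5 CD95-Ab mice, with points for mice and black bars for mean ± SD. Thbs1, Fst and Acvrl1 lie higher and Smad9 and Atoh8 lower in all CD95-Ab mice, whereas Hamp and Hamp2 overlap between groups.

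Of the 4 bHLH genes listed as partners of ID proteins, 2 rose, 1 fell and 1 did not pass the test. That is 75% called, compared with 47.3% of all tested genes. Tcf4 rose with a log2 fold change of 1.25 ± 0.15 (FDR 4.30e-05) and Hes1, a Notch target, with one of 1.11 ± 0.42 (FDR 0.0453), while Tcf3 fell (-0.50 ± 0.16, FDR 0.0199). The call of Hes1 was lost when any mouse other than saline replicates 2 or 4 or CD95-Ab replicate 1 was left out (FDR 0.0557 to 0.113), and that of Tcf3 without saline replicate 5 (FDR 0.0525) or CD95-Ab replicate 3 (FDR 0.0564).

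Within groups, the genes whose levels moved most like each of the 10 were sought among 12119 genes with a mean of 1 CPM or more, by Pearson's r of log2 CPM deviations from the group means over 10 mice. This is a description over mice that share library and depth effects, picked as the highest of many values. Id3 moved most like Atf3, a stress-induced transcription factor gene (r = 0.97), and Inhbb like Cdh13 (r = 0.97) and Cdkn1a (r = 0.96). Tgfb1 was closest to Stx11 (r = 0.96), Bmp2 to Arhgef7 (r = 0.97), Inhba to Klhdc7a (r = 0.96) and Inhbe to Ftsj1 (r = 0.92). Smad6 was closest to Limch1 (r = 0.93), Smad7 to Zfand4 (r = 0.93), Id1 to Cfl1 (r = 0.96) and Pcna (r = 0.95), and Id2 to Gm2274 and Rasgrp2 (r = 0.94 each). Among the 10 genes themselves, r of these deviations was highest between Id1 and Id3 (0.81) and between Id2 and Id3 (0.75), and lowest between Inhba and Smad6 (-0.78). Saline replicate 5 was the highest saline mouse for Id1, Id2 and Id3 and stood far apart for Id1. The r values of the ID genes, with each other and with Cfl1 and Pcna, may rest on this mouse and were not computed without it.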

How the data were processed

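Liver RNA of 5 saline and 5 CD95-Ab mice was analysed, with groups and replicate numbers taken from the sample labels. The authors prepared libraries from 500 ng of total RNA with TruSeq reagents, sequenced pairs of 100 bp reads and ran RSEM 1.2.19 (submitters' processing notes). The deposited expected counts are RSEM's estimated fragments per gene without normalization, and they were rounded to whole numbers before testing. The deposited FPKM values were also made by the authors with RSEM and relate each count to transcript length and to the depth of the mouse. RSEM shares reads that match several genes among them. The methods of the study name a human Gencode release for this step, whereas the files hold mouse Ensembl identifiers. The mouse build and annotation release and the strand setting are not given in the sources used here.

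Symbols and GRCm38 positions came from GENCODE M21, which held 37606 of 38922 identifiers, and no exon of the 10 genes overlapped another annotated gene. Genes were kept by filterByExpr (minimum count 10) and tested in edgeR 4.0.16 (R 4.3.3) by quasi-likelihood, with TMM factors and a model of group alone. Benjamini-Hochberg FDR was taken over 13719 genes, and the thresholds were an FDR of 0.05 and a log2 fold change of 2 or -2. The SE of edgeR fold changes was computed back from the F statistic of the test. Confidence intervals are the estimate ± the normal quantile times the SE, and are narrower than the test itself would give. CPM are per 1000000 TMM-scaled counts. Shares and ratios per mouse used FPKM and the exact permutation test over 252 splits of the mice. Python 3.11.15, pandas 2.3.3 and scipy 1.17.1 were used. Depth of 25965699 to 62097636 counts limits precision to counting error at low levels.

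The code was tested on simulated counts of 13577 genes. It recovered 45% of genes given a log2 change of 1 and 90% of those given 2, and 2.17% of its calls were false. Only 100 genes were given each size of change, up and down alike. In the data 47.3% of tested genes were called, and the rates were not tested for so broad a change.

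The 10 genes and all lists were chosen with earlier results of these data known. Named are the 10 genes, from each list up to 3 called genes with the largest change per direction, genes needed for background, and the genes most alike within groups. Not every gene that meets the rule is given, and some results are not reported here. Id4, Tgfb2, Tgfb3, Gdf2 and Bambi were added for background. Alternatives were other normalizations, filters, tools (DESeq2 1.42.0, limma 3.58.1 on log2 FPKM with a pseudocount of 0.1 or 1), a block for replicate number and fits that left out 1 mouse at a time. The log2 ratios of gene pairs, and the alternatives for 7 other named genes, were added after seeing the data.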

Additional observations from a re-analysis of the deposited data

Results flagged for a closer look

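Id1 in saline replicate 5 was far from the other mice of its group, at 16.1 CPM compared with 2.31 to 4.27 CPM in the other 4 saline mice. The gap to the nearest mouse was 0.858 of the range of the group, above Dixon's critical value of 0.71 for 5 samples. Of 20 groups of mice tested (10 genes in both groups), this was the only one to pass, and chance gives about 1 in 20. The cause was not tested.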

How the results depend on the processing

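Each fold change of the 10 genes was recomputed under 20 alternatives, which gave 200 values, of which 176 kept their direction and side of the threshold. Another 17 lost the call, 1 gained it and 6 changed sign, all with 1 mouse left out. With 1 mouse left out, between 3 and 6 of the 10 genes were higher and between 0 and 1 lower, whereas under all other alternatives 5 were higher and 1 lower. The calls lost were those of Inhbe, Bmp2 and Smad6, and the cause was not tested. Id1 ranged from -0.14 to 0.83 with 1 mouse left out (FDR 0.0155 to 0.992). The share of Inhbe differed by -20.2 to -12.5 percentage points (adjusted p 0.0238 to 0.0714), and the ratio of inhibitory to other SMADs by -1.54 to 0.232 points, changing sign without saline replicate 5 and without CD95-Ab replicate 5. Limma on log2(FPKM + 1) lowers the fold changes of low genes by construction and gave 2.76 for Inhbb. Pathway counts ranged from 31 to 39 higher and from 8 to 10 lower, and all genes called from 5616 to 7565. The replicate numbers are shared by both groups, but mice with the same number deviated together with a mean correlation of only 0.037 (from -0.27 to 0.26), compared with -0.006 for other pairs, so the numbers were not treated as pairing. A fit with the replicate block called 5987 genes in all and the 10 genes gave the same counts, 5 and 1. With the block, an exact sign-flip test of the shares of Inhbe (-16.4) and Id2 (-53.7) gave an adjusted p of 0.188 for each, but its smallest p with 5 pairs is 0.0625. Hamp2 ranged from -0.33 to 1.02 and Gdf2 from -0.25 to 0.26 with 1 mouse left out, and both changed sign with the replicate block (0.55 and -0.064) and with limma on log2(FPKM + 0.1) (0.33 and -0.15) and log2(FPKM + 1) (0.33 and -0.095), while neither passed the test there. Hamp passed the test with the likelihood ratio test (FDR 0.0331), the replicate block (FDR 0.0237) and limma on both FPKM scales (FDR 0.0168 and 0.0173). Tgfbr3 lost its call with total counts only (FDR 0.0710) and with limma (FDR 0.119 and 0.107), and Hes1 with total counts only (FDR 0.0559). Counts were as low as 10 for Inhbb in a saline mouse and 15 for Inhba in a CD95-Ab mouse, which limits the precision of both.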

Other observations

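Mice differed in how many of the 10 genes they held the highest level of their group. CD95-Ab replicate 3 was the highest CD95-Ab mouse for 6 of the 10 genes and for 22.4% of all tested genes, and saline replicate 5 was the highest saline mouse for 4 of the 10 genes and for 30.3% of all tested genes. The same saline mouse was the highest of its group for Hamp, Hamp2 and Atoh8, which are part of the list of SMAD targets. Hamp and Hamp2 are near-identical with an uncertain split of reads, so they are not separate results.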
